A study of Mus musculus with 12 samples.

Results

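The genes described here are named for proteins of the mitochondrial ribosome, although Mrps36 is now placed in another complex, as given below. They were taken as every gene with at least 1 probe set whose only gene symbol begins with Mrpl (large subunit) or Mrps (small subunit) followed by a number. This gave 76 of the 18193 genes on the array, 47 of the large and 29 of the small subunit, measured by 156 probe sets. Of these genes, 34 had 1 probe set and 42 had several, with Mrpl15 the most at 8. Mrpl30 and Mrpl53 were left out because each of their probe sets is also assigned to another gene, as was 1 probe set that Mrps34 shares with Nme3. The arrays came from liver and quadriceps muscle of C57BL/6 mice, either carrying a hypomorphic (reduced function) PGC1beta mutation or labelled as controls. Each of the 4 groups had 3 Affymetrix Murine 430 2.0 arrays: mutant liver, control liver, mutant muscle and control muscle. The labels give no age, sex or allele name, describe no agent or transgene, and do not say whether the liver and muscle arrays came from the same mice. They number the samples but do not state that each was a separate mouse, so the p-values reflect the spread among these samples alone, and that spread may be technical. The precision of each value is limited by the 3 arrays a group.

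The mitochondrial ribosome translates the few messenger RNAs that the mitochondrial genome itself encodes, all of them for subunits of the respiratory chain and ATP synthase. Its RNAs are mitochondrial transcripts, whereas its proteins are nuclear-encoded, made in the cytosol and imported. The large subunit forms peptide bonds and holds the exit tunnel, and the small subunit holds the messenger RNA and the decoding centre. Many of the proteins have counterparts in bacterial ribosomes, and others occur only in mitochondrial ribosomes. PGC-1beta, the product of Ppargc1b, is a transcriptional coactivator that works with nuclear receptors such as the estrogen-related receptors and with nuclear respiratory factors. The factors NRF1, GABPA (a member of the ETS family) and YY1 are known to bind the promoters of many nuclear genes for mitochondrial proteins.

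Promoter sequence was at hand for 67 of the 76 genes, in RefSeq windows on GRCm38.p6 that run from 250 bases before to 50 bases after each gene's start. Mrpl4, Mrpl13, Mrpl15, Mrpl19, Mrpl38, Mrpl54, Mrps28, Mrps34 and Mrps35 had none. Windows were searched on both strands for 4 fixed strings. The ETS core CCGGAAG occurred in 25 of the 67 genes (37.3%), against 17.6% of the genes tested in liver and 8.86% of all windows. The YY1 core AAGATGGC occurred in 12 genes (17.9%, against 4.73% and 2.75%). An NRF1 core, CGCATGCG, was found in 7 genes (10.4%, against 3.88% and 1.87%), which were Mrpl9, Mrpl10, Mrpl17, Mrpl22, Mrpl32, Mrpl39 and Mrps18b. The estrogen-related receptor motif TCAAGGTCA was in 0 of the 67 genes, against 0.391% and 0.423%, so it was rare everywhere. No ETS match overlapped a YY1 match, 37 genes held at least 1 of the strings and 30 held none. A match is a string of letters, not a shown binding site.

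The 4 stretches below belong to genes whose values follow, and the first 3 hold the strings, whereas the last holds none and is shown because 2 of the genes share it. They read 5′ to 3′ on the gene's own strand unless stated, and capitals mark the matched strings. The first 3 are the 150 bases before the gene's start. Mrpl32 (chr13:14613038-14613187, minus strand) holds the NRF1 core 2 times, 86 and 23 bases before the start. Mrpl22 (chr11:58171514-58171663, plus strand) holds the ETS core 53 bases and the NRF1 core 32 bases before the start. Mrps22 (chr9:98601680-98601829, minus strand) holds the ETS core 11 bases before the start. The last is the whole stretch of 41 bases between the starts of Mrpl46 and Mrps11, which lie head to head (chr7:78783090-78783130, printed on the plus strand, which is that of Mrps11).
Mrpl32: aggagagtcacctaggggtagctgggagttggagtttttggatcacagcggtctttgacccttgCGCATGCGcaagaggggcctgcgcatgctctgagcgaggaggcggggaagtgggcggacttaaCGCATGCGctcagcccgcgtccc
Mrpl22: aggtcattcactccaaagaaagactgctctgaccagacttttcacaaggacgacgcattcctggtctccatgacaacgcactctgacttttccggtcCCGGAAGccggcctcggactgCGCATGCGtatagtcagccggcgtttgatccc
Mrps22: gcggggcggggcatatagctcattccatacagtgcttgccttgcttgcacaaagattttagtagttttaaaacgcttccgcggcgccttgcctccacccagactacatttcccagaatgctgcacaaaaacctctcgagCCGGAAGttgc
Mrpl46 and Mrps11: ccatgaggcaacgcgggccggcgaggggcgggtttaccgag

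Values below are the deposited intensities after quantile normalisation within each tissue, and differences are mutant minus control on the log2(intensity + 16) scale, tested across all genes with limma and Benjamini-Hochberg adjustment at 0.05. Before normalisation the median intensity of an array lay between 20.1 and 40.1. Hepatocyte markers summed to 47992 to 54338 on the liver arrays against 263 to 814 in muscle, and skeletal muscle markers summed to 58.6 to 94.8 in liver against 68910 to 72364 in muscle, so the tissue labels held. Ppargc1b itself read 544, 282 and 479 in control liver and 402, 491 and 202 in mutant liver (log2 difference -0.28, SE 0.32, adjusted p = 0.692). In muscle it read 302, 284 and 332 against 423, 280 and 271 (0.06, SE 0.17, adjusted p = 0.998). The labels do not say which part of the transcript the mutation alters, so this level does not check them. Liver mutant arrays 1 and 3 stood apart in the 3′ over 5′ signal of Actb, Gapdh and Pcx, an index of RNA quality, with mean log2 ratios of 1.90 and 1.87. The ratio was 0.90 in liver mutant 2, 0.50 to 0.97 in the control livers and 0.33 to 0.56 in muscle.

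In mutant liver, 15 of the 76 genes rose and 0 fell. Of all 13327 genes tested, 2.33% were called higher and 1.03% lower. The direction was shared well beyond the called genes, since 68 of the 76 log2 differences were above 0, with a median of 0.46 against 0.01 for all genes tested. In 41 genes all 3 mutant livers read above all 3 controls, against 13.0% of genes tested, and in 1 gene all 3 read below, against 11.0%. All 76 genes had passed the filter on low intensity in each comparison. These are bulk tissue samples, in which fewer cells of a type and less RNA per cell cannot be told apart.

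**Figure D1:**
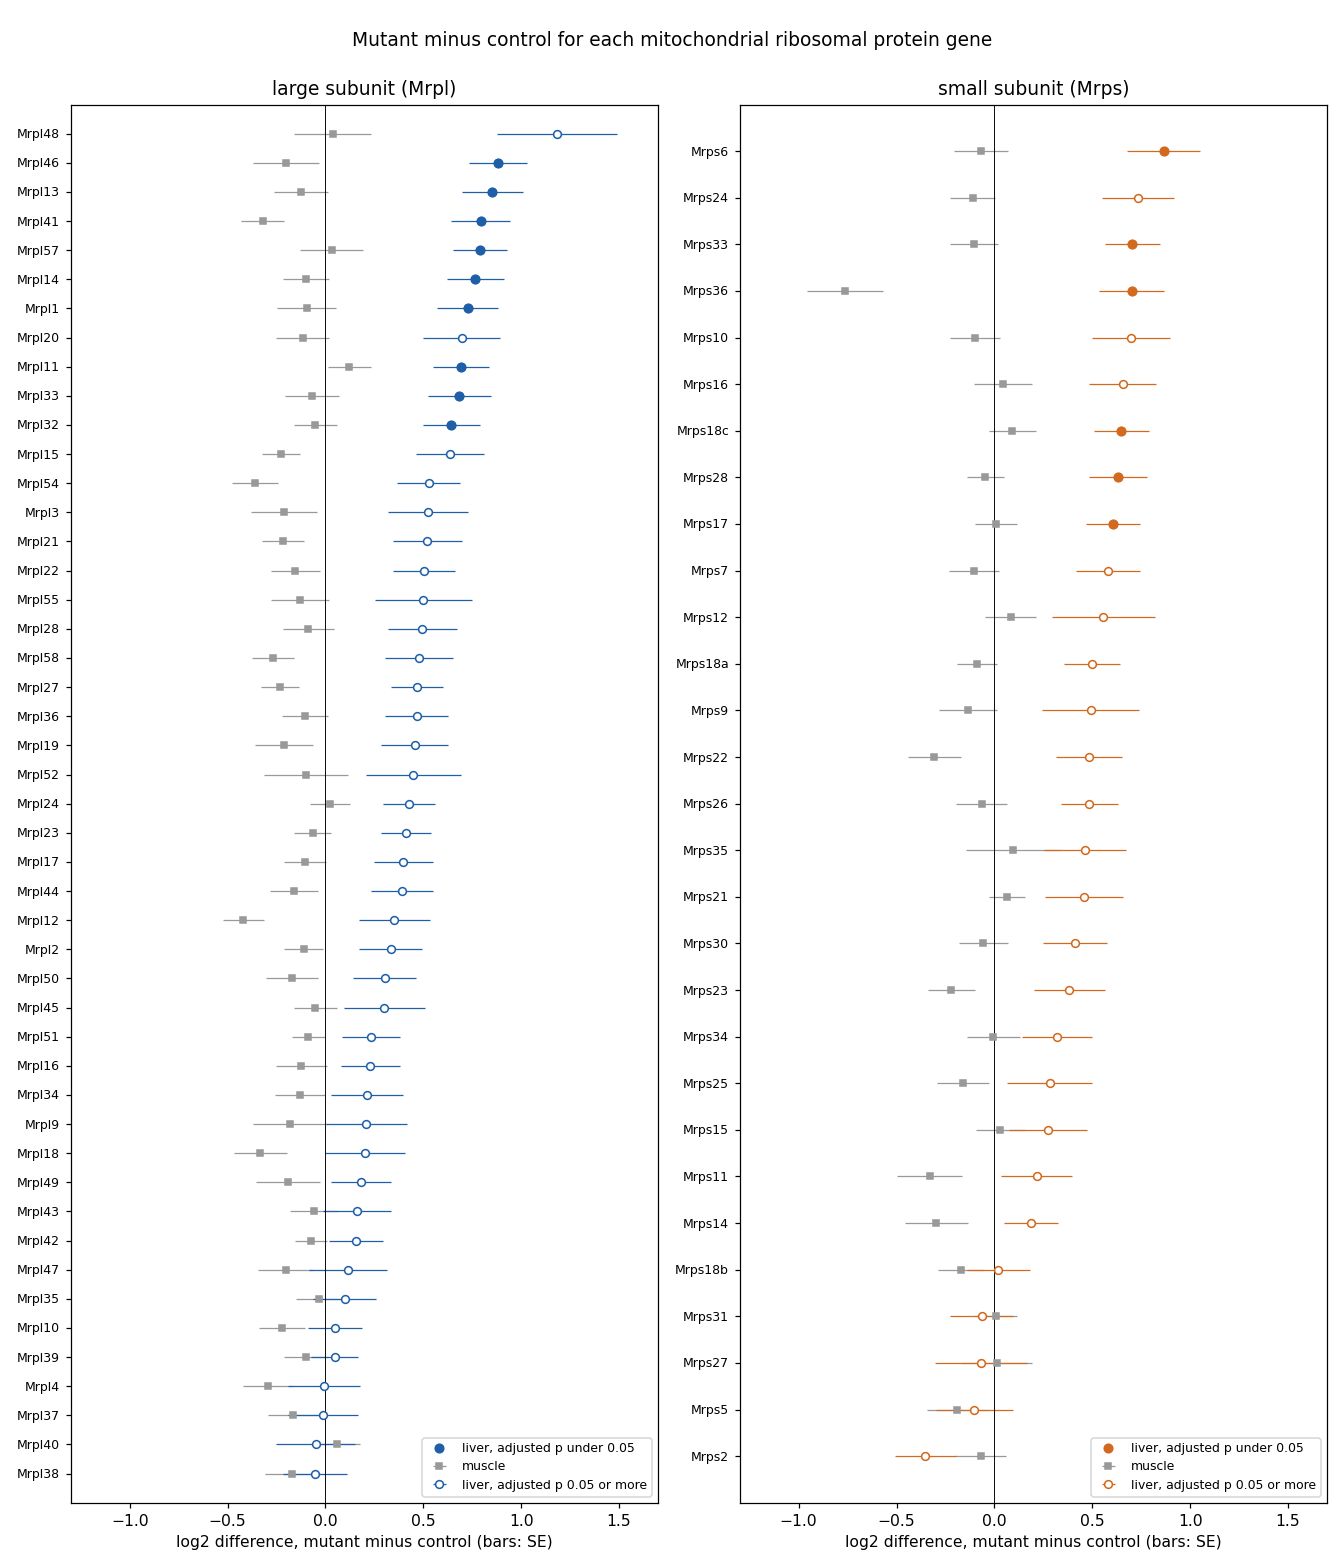
Log2 difference (mutant minus control) with its SE for each of the 76 genes, large subunit on the left and small subunit on the right, ordered by the liver difference. Circles are liver, filled where the adjusted p was under 0.05, and grey squares are muscle; 68 liver circles lie above 0 and 62 muscle squares below 0.

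Among the large subunit genes that rose, Mrpl46 and Mrpl13 had the largest differences. Mrpl46, a mitochondria-specific protein of the central protuberance on top of the large subunit, read 376, 471 and 392 in control livers and 820, 702 and 791 in mutant livers. Every mutant value lay above every control, and the difference was 0.88 (SE 0.15, adjusted p = 0.0198), a 1.84-fold higher level. Mrpl13, the counterpart of a bacterial protein that binds ribosomal RNA, read 491, 655 and 503 in controls and 1117, 935 and 948 in mutants. Its groups did not overlap either, and the difference was 0.85 (SE 0.16, adjusted p = 0.0241).

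Mrpl57 read 741, 801 and 651 in controls against 1422, 1215 and 1184 in mutants (0.79, SE 0.14, adjusted p = 0.0217). Mrpl41 read 544, 688 and 511 against 1096, 1018 and 922 (0.79, SE 0.15, adjusted p = 0.0265). Both proteins occur only in mitochondrial ribosomes, and for both genes the lowest mutant liver was well above the highest control. Mrpl14, whose bacterial counterpart lies at the interface between the subunits, read 727, 823 and 810 against 1503, 1449 and 1123 (0.77, SE 0.15, adjusted p = 0.0259). The other large subunit genes that rose were Mrpl1 of the movable L1 stalk (0.73), Mrpl11 at the base of the stalk that recruits elongation factors (0.69), Mrpl33 (0.68) and Mrpl32, which is matured by a mitochondrial protease (0.64). Mrpl32 carries the paired NRF1 cores printed above, whereas Mrpl22, with 1 such core, had a difference of 0.50 that was not called.

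The 6 small subunit genes that rose were Mrps6, Mrps17, Mrps18c, Mrps28, Mrps33 and Mrps36. Mrps6, the counterpart of bacterial protein S6 on the platform of the small subunit, read 174, 240 and 241 in controls and 454, 335 and 441 in mutants. The lowest mutant, array 2, was above the highest control, and the difference was 0.87 (SE 0.19, adjusted p = 0.0365). A dimmer probe set of Mrps6 gave 0.41 (SE 0.19) and was not called when fitted singly. Mrps33, a mitochondria-specific protein, read 433, 417 and 376 against 713, 699 and 616 (0.70, SE 0.14, adjusted p = 0.0297). Mrps18c, Mrps28 and Mrps17 differed by 0.65, 0.63 and 0.61.

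Mrps36 carries a ribosomal name but is now described as a component of the oxoglutarate dehydrogenase complex of the citric acid cycle. It read 240, 240 and 269 in control livers and 448, 344 and 465 in mutant livers (0.70, SE 0.16, adjusted p = 0.0470). The groups were separate, with mutant 2 again the lowest of the mutants.

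The largest liver difference of all 76 was not called. Mrpl48, another protein of the central protuberance, read 202, 511 and 209 in controls and 826, 574 and 594 in mutants (1.18, SE 0.31, adjusted p = 0.0639). Control 2 lay close to the mutants and far above the other controls. In the same structure, Mrpl38 (-0.05) and Mrpl40 (-0.05) had differences near 0. By the brightest probe set of each gene, members of 1 structural feature thus ranged from -0.05 to 1.18. Dimmer probe sets gave 0.56 and 0.06 for Mrpl38 and 0.69 and -0.08 for Mrpl48, so this range depends on the probe set.

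Only 8 genes had negative liver differences, and none of them was called by limma. Mrps2, a counterpart of bacterial protein S2, was the lowest at -0.35 (SE 0.16, adjusted p = 0.253). It read 309, 327 and 360 in controls and 221, 272 and 279 in mutants, which makes it the 1 gene with all mutants below all controls. Mrps5, the next lowest, read 292, 300 and 259 against 279, 194 and 331, with overlapping groups (-0.10, SE 0.20). Mrps27, Mrps31, Mrpl37 and Mrpl4 lay between -0.07 and -0.01, beside Mrpl38 and Mrpl40. A dimmer probe set of Mrps31 gave 0.50 (SE 0.29).

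Counts and medians of the subunits lay close together in liver. Of the large subunit genes 9 of 47 rose (19.1%), and of the small subunit genes 6 of 29 (20.7%). The medians were 0.43 and 0.48, a large minus small gap of -0.06, against quartiles of 0.21 to 0.58 within the large and 0.27 to 0.63 within the small subunit. Positive differences were found in 43 of 47 and 25 of 29 genes. Structures place the proteins named Mrps18a and Mrps30 in the large subunit. With these 2 moved there and Mrps36 left out, the gap was -0.05, and 9 of 49 large and 5 of 26 small subunit genes rose. The 3 genes of the Mrps18 family, whose proteins sit in different places of the ribosome, gave liver differences of 0.50 for Mrps18a, 0.02 for Mrps18b and 0.65 for Mrps18c.

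In liver, evolutionary origin separated the gene medians a little more than the subunit did, though not on each mutant array. Of 47 genes with a bacterial counterpart 10 rose, with a median of 0.49. Of 28 mitochondria-specific genes 4 rose, with a median of 0.35. In the large subunit these medians were 0.47 over 29 genes and 0.30 over 18, and in the small subunit 0.53 over 18 and 0.40 over 10. Relative to the control mean, the medians of both classes were 0.57 and 0.33 in mutant 1 and 0.29 and 0.12 in mutant 2. In mutant 3 they were 0.54 and 0.50, closer together than the subunit medians of 0.51 and 0.58. The members are not replicates and no test was made between the classes.

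Taken array by array, the liver shift was present in each mutant but uneven. The median of the 76 genes relative to the control mean was 0.53, 0.24 and 0.53 in mutants 1, 2 and 3, and -0.14, 0.12 and 0.03 in controls 1, 2 and 3. Large subunit medians were 0.55, 0.25 and 0.51 and small subunit medians 0.52, 0.24 and 0.58, so both subunits followed the same order of arrays. Mutant 2 gave the lowest of the 3 mutant values in 58 of the 76 genes. The higher medians fell on the same arrays as the higher 3′ to 5′ ratios. With mutants 1 and 3 left out, 56 of the 76 differences stayed positive with a median of 0.24. With the ratio as a covariate the median was 0.22, with 0 calls among the 76 and 2 among all 13327 genes tested. The ratio was higher in mutants 1 and 3 than in any control, so this covariate overlaps with the mutation. The part of RNA quality in the result beyond this was not tested.

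**Figure D2:**
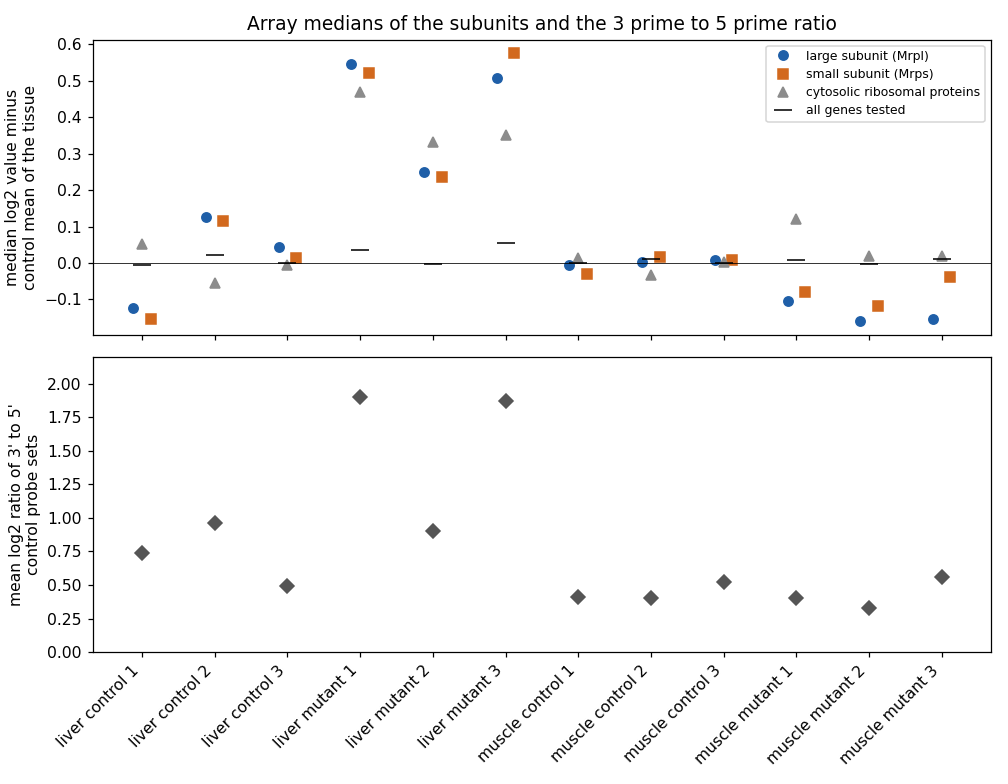
Upper panel: for each of the 12 arrays, the median over large subunit, small subunit and cytosolic ribosomal protein genes and over all genes tested, as log2 value minus the control mean of the tissue. Lower panel: mean log2 of the 3′ over 5′ signal of control genes; liver mutants 1 and 3 are highest in it at 1.90 and 1.87, and the large subunit medians of the liver mutants are 0.55, 0.25 and 0.51.

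The number of calls changed with single arrays, among these genes and among all genes. Without control 1, 2 or 3 or without mutant 1, 0 of the 76 genes were called. All genes then gave 27, 0, 26 and 0 calls, against 310 higher and 137 lower in the full fit. Without mutant 3 there was 1 call among the 76 and 43 among all genes. Without mutant 2 there were 22 and 738. The number of positive differences was 63 to 74 of 76 over the same fits. Genes of the cytosolic ribosome, listed separately, moved in liver too: 12 of 43 tested rose and 0 fell, with a median of 0.39 and array medians of 0.47, 0.33 and 0.35 in the mutants. Kupffer cell and macrophage markers were also higher in mutant liver, with 2 of 7 called and summed levels of 2420 to 3128 against 1583 to 2212 in controls. Summed hepatocyte markers were lower in mutant liver, at 47992 to 51843 against 52314 to 54338 in controls, with 0 of 5 called. Lymphocyte markers summed to 114 to 136 in mutant liver against 102 to 110, with only 1 tested and 0 called. Sums of endothelial (5 tested), stellate cell (4), muscle (2) and cholangiocyte (1) markers overlapped between the groups, with 0 called. Adipocyte sums overlapped too, and 0 of these markers passed the filter in liver. The part of these marker levels in the result was not tested.

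In muscle, limma called 0 of the 76 genes at the adjusted threshold, and 10 at an unadjusted p under 0.05, all of them lower in the mutant, against 2.53% of genes tested that were lower at that level. Of all 13131 genes tested in muscle 0.0152% were called higher and 0.0% lower. The balance of signs was the reverse of that in liver, with 62 of 76 differences below 0 and a median of -0.11 against 0.00 for all genes tested. In 15 genes all 3 mutants read below all 3 controls, against 5.22% of genes tested. In 0 genes did all 3 read above, against 4.31%. The quartiles were -0.19 and -0.06, so the muscle differences were small beside those in liver.

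The lowest muscle value belonged to Mrps36, the gene of the oxoglutarate dehydrogenase component. Control muscles read 772, 562 and 711 and mutant muscles 423, 282 and 501, so the groups did not overlap. The difference was -0.76 (SE 0.20, limma adjusted p = 0.994), and it was among the 10 with an unadjusted p under 0.05. Mrpl12, the protein of the stalk that recruits elongation factors, read 482, 529 and 483 in controls and 377, 346 and 382 in mutants. These groups were again separate, and the difference was -0.42 (SE 0.11, limma adjusted p = 0.994), again among the 10.

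Mrpl54, a mitochondria-specific protein, read 216, 215 and 229 against 176, 164 and 163 (-0.36, SE 0.12). Mrpl41 read 396, 345 and 392 against 299, 295 and 303 (-0.32, SE 0.11). Neither pair of groups overlapped. Mrpl58, a peptidyl-tRNA hydrolase built into the large subunit, read 308, 299 and 314 against 258, 248 and 250, also without overlap (-0.27, SE 0.11). Among small subunit genes Mrps22, whose ETS core is printed above, read 200, 227 and 189 against 157, 148 and 184 (-0.31, SE 0.13). Each mutant was below each control, by a margin of only a few units between mutant 3 and control 3. None of these differences passed after adjustment.

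The large subunit made up most of the lower genes in muscle, with 42 of 47 negative and 11 of 47 fully separated, against 20 of 29 and 4 of 29 in the small subunit. The medians were -0.12 and -0.07, a gap of -0.05. Leaving out muscle control 1 reduced that gap to -0.000623, so it rested on 1 array. Array medians over all members were -0.10, -0.15 and -0.08 in mutants 1, 2 and 3 and -0.02 to 0.01 in the controls. Here the 3′ to 5′ ratios of mutants (0.33 to 0.56) and controls (0.40 to 0.52) overlapped. The cytosolic ribosome had a muscle median of 0.06, with 0 of 42 called.

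The mutant difference was set between the tissues by an interaction term, the liver difference minus the muscle difference. In 9 of the 76 genes it passed, each time with the liver value above the muscle value. Of all 11842 genes tested, 1.16% were called in that direction and 0.262% in the other. The term was positive in 72 of 76 genes, with a median of 0.55 against 0.03 for all genes tested. By subunit 7 of 47 large and 2 of 29 small subunit genes passed, with medians of 0.55 and 0.55. With Mrps18a and Mrps30 counted in the large subunit and Mrps36 left out, 7 of 49 and 1 of 26 passed.

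Mrps36 had the largest term at 1.46 (SE 0.27, adjusted p = 0.0217), from 0.70 in liver and -0.76 in muscle. Mrpl41 followed at 1.11 (SE 0.18, adjusted p = 0.0165), with separate groups in both tissues and opposite directions. The terms of Mrpl46 and Mrpl13 were 1.08 (adjusted p = 0.0333) and 0.98 (adjusted p = 0.0358), mostly from liver, since their muscle differences were -0.20 and -0.12. Mrpl54, Mrpl15 and Mrpl27, the last a protein close to the peptidyl transferase centre, passed the interaction (0.89, 0.86 and 0.70) but not the liver test alone (0.53, 0.64 and 0.47). Mrpl14 (0.87) and Mrps33 (0.81) completed the 9.

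Like the liver calls, these changed with single arrays left out, and over all genes such fits gave 12 to 391 calls. Of the liver arrays, leaving out control 1 or control 3 gave 2 calls, control 2 gave 8, mutant 1 gave 0, mutant 3 gave 4 and mutant 2 gave 18. Of the muscle arrays, leaving out control 1 gave 1 call, mutant 2 gave 0, mutant 3 gave 4, and control 2, control 3 or mutant 1 gave 2.

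**Figure D3:**
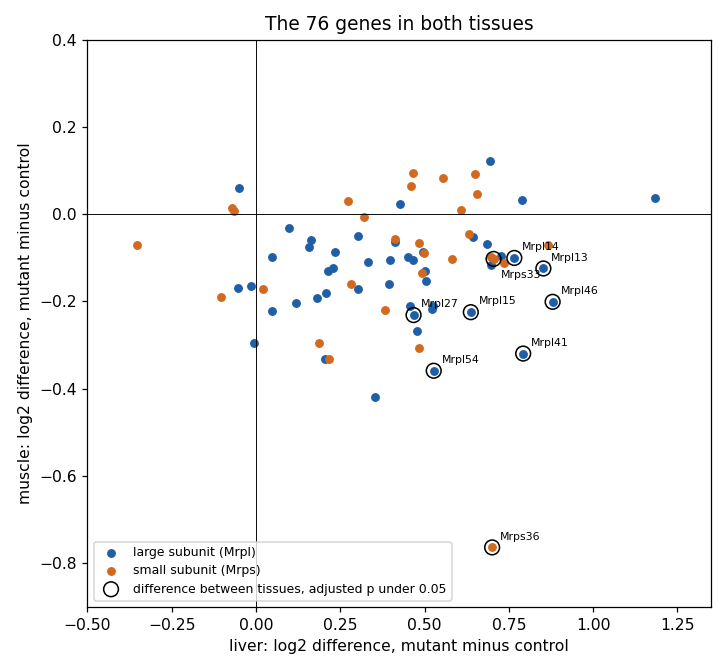
Each point is 1 of the 76 genes, with its log2 difference in liver on the horizontal and in muscle on the vertical axis; circled and named genes are the 9 whose interaction had an adjusted p under 0.05. At the lower right, positive in liver and negative in muscle, lie 57 genes, with Mrps36 far below the others.

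By sign, 57 genes were positive in liver and negative in muscle, 11 positive in both, 5 negative in both and 3 negative in liver and positive in muscle. The split was 39, 4, 3 and 1 for the large and 18, 7, 2 and 2 for the small subunit. Across the 76 genes the size of the liver difference said little about that in muscle (Pearson r = 0.06, Spearman rho = 0.12). Without Mrps36 the values were 0.15 and 0.15. The points share arrays within a tissue and are not independent.

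Neighbouring genes with a common promoter region were also set side by side. Mrpl46 and Mrps11 start 42 bases apart, on opposite strands of the 41 bases printed above, and their products belong to different subunits. Mrpl46 rose by 0.88, whereas Mrps11 read 240, 277 and 246 in controls and 372, 239 and 296 in mutants, with overlapping groups (0.22, SE 0.18, adjusted p = 0.575). A dim second probe set of Mrps11 gave -0.54 in liver (SE 0.27). In muscle both were negative, at -0.20 and -0.33. The difference between the 2 genes was not tested. Of the 67 genes with a window, 25 have a head-to-head partner starting within 1000 bases. Mrpl32 (0.64) faces Psma2, a proteasome subunit, which differed by 0.46 in liver (adjusted p = 0.0531). Mrpl21 (0.52) faces Ighmbp2 (-0.45), and neither of these was called.

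Liver values were also read against the promoter strings. NRF1 cores were in 1 of the 13 called genes with a window and in 6 of the 54 others. ETS cores were in 4 of 13 and 21 of 54, and YY1 cores in 1 of 13 and 11 of 54. Median liver differences were 0.21 with and 0.46 without the NRF1 core, 0.48 with and 0.37 without the ETS core, and 0.34 with and 0.45 without the YY1 core. In muscle they were -0.15 and -0.10 for the NRF1 core, -0.10 and -0.11 for the ETS core and -0.10 and -0.11 for the YY1 core. By subunit the NRF1 core was in 6 of 41 large and 1 of 26 small subunit genes, and the ETS core in 14 and 11.

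For genes with several probe sets, the text above uses the probe set that was brightest on average across the 12 arrays. Of the 156 probe sets 140 passed the filter in liver, and 117 of them had positive differences, with a median of 0.39. Fitted singly, 12 probe sets of 9 genes were called higher in liver, against 1.45% of all 27022 probe sets tested. Mrpl13 was the most uniform of the genes that rose, with 0.85, 0.99 and 1.08 from 3 probe sets that each passed. The 2 tested probe sets of Mrpl41 gave 0.79 and 1.23, and both passed.

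Other genes disagreed among their probe sets. In 13 of 38 genes with several tested probe sets the liver differences spanned more than 0.5, and in 11 they had both signs. Mrpl48 gave 1.18, 0.69 and -0.08, the last from a dim probe set with means of 48.7 in controls and 45.1 in mutants. Mrpl15 gave -0.23 to 0.77 over 7 tested probe sets, and the probe set standing for it (0.64) is of a type that can also bind related transcripts. Mrpl27 gave 0.47 from its standing probe set and 1.20 from a dimmer one that passed alone. Mrpl1, which was called at 0.73, gave 0.10 from its second probe set. Mrps5 was the 1 gene of this kind with all of its differences negative, -0.69 to -0.10 over 5 probe sets. Over the 64 tested probe sets that do not stand for a gene, 49 were positive and the median was 0.26. In muscle 109 of 136 tested probe sets were negative, and 0 were called.

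**Figure D4:**
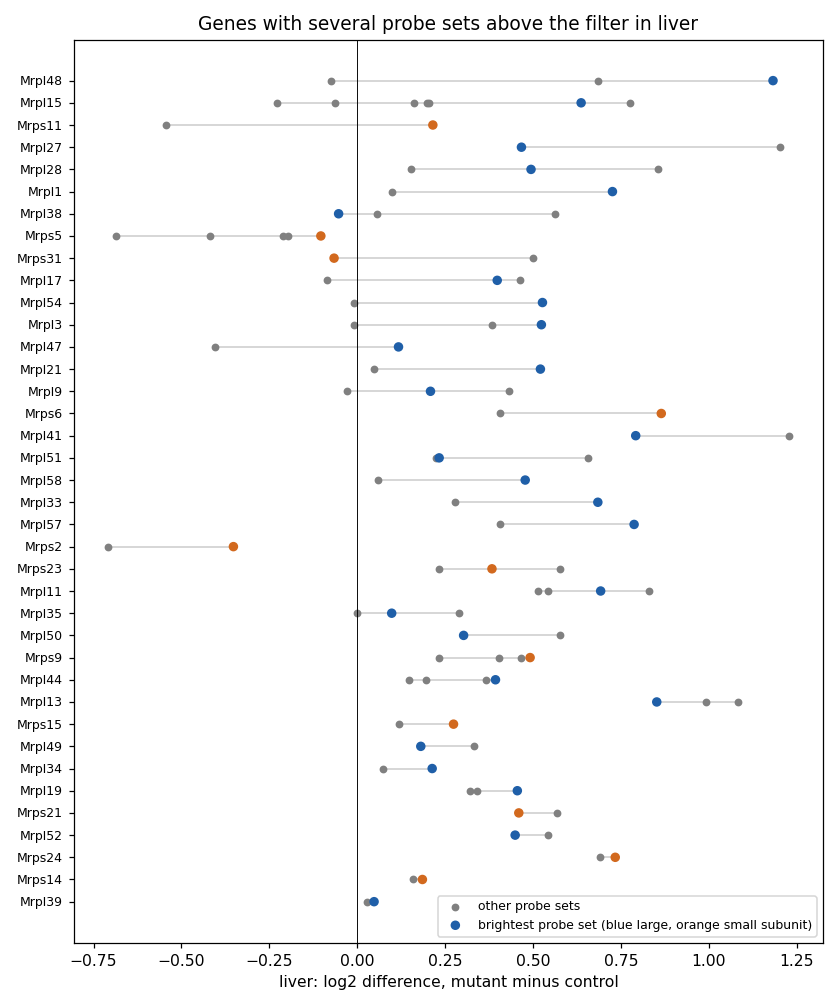
Liver log2 differences (mutant minus control) of every probe set that passed the filter, for the 38 genes with several, ordered by the span between their lowest and highest value. The probe set used for the gene is coloured and the others grey; Mrpl48 at the top spans -0.08 to 1.18, and Mrpl13 lies between 0.85 and 1.08.

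The same genes were compared between the tissues of control animals. With all 12 arrays normalised together, 9 of 76 were higher and 35 lower in control liver than in control muscle, against 26.3% and 28.4% of all 14615 genes tested. The median was -0.26 against 0.00 for all genes tested. This split depended on scaling. With the values as deposited 33 were higher and 7 lower, 10 of the 44 called genes changed sign, and the median was 0.38 against 0.48 for all genes tested. Centring each array on its median gave 19 higher and 25 lower, with medians of -0.05 and 0.05. Under each of the 3 scalings the median of these genes lay below that of all genes tested.

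**Figure D5:**
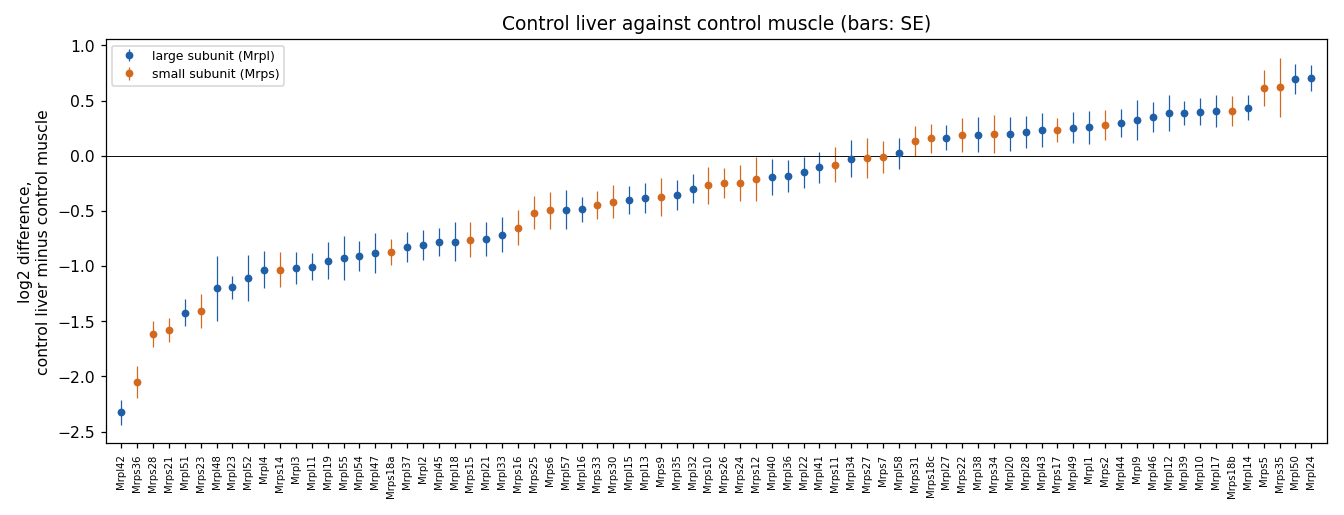
Log2 difference of control liver minus control muscle, with its SE, for the 76 genes in order of the difference (3 arrays a group, 12 arrays normalised together). Points run from -2.33 for Mrpl42 to 0.70 for Mrpl24, with large and small subunit genes mixed along the order.

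Mrpl42 differed most, at 592, 746 and 687 in control livers and 3718, 3325 and 3270 in control muscles (-2.33, SE 0.12, adjusted p = 1.38e-08), a 5.01-fold higher level in muscle. Mrps36 was next, with 195, 196 and 218 against 1026, 735 and 942 (-2.05, SE 0.15). Mrps28 and Mrps21 followed at -1.61 and -1.58. All 4 genes had separate groups. At the other end, Mrpl24, beside the exit tunnel, read 671, 790 and 766 in liver and 442, 466 and 438 in muscle (0.70, SE 0.12, adjusted p = 0.000341). Mrpl50 (0.70) and Mrps5 (0.62) were also called higher in liver. Mrps35, at 0.62, was not (adjusted p = 0.0707), since its muscle values of 123, 163 and 278 reached into those of liver at 222, 377 and 267. By subunit 7 large and 2 small subunit genes were called higher and 23 and 12 lower, with medians of -0.30 and -0.25.

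Proteins of the mitochondrial ribosome with other names were followed as a list of 5, of which 4 were measured. Chchd1, of the small subunit, read 1206, 966 and 941 in control livers and 2343, 1859 and 1806 in mutant livers. It rose by 0.94 (SE 0.15, adjusted p = 0.0181), with no overlap, and its interaction passed as well (0.99, adjusted p = 0.0181). Gadd45gip1 (0.41), Ptcd3 (0.40) and Dap3 (0.04) were not called. In muscle all 4 were negative and 0 were called.

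Of 37 genes for translation and ribosome assembly factors in mitochondria, 35 were measured. In liver 3 rose and 0 fell, with a median of 0.08, well below that of the ribosomal proteins. Fastkd2, an RNA-binding protein needed for the large subunit, read 98.2, 65.1 and 80.8 in controls and 227, 132 and 169 in mutants (0.96, SE 0.22, adjusted p = 0.0432). Slirp, which binds mitochondrial messenger RNAs, rose by 0.86 (adjusted p = 0.0211), and Malsu1, an assembly factor of the large subunit, by 0.84 (adjusted p = 0.0242). The interaction passed for Slirp (0.90) and Malsu1 (1.01). In muscle 0 of 35 were called. Tufm, the mitochondrial elongation factor Tu, had the lowest difference there (-0.43, SE 0.15, adjusted p = 0.994).

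Of 16 genes for transcription factors and regulators of mitochondrial genes, 0 were called in either tissue by limma, with 2 and 1 at an unadjusted p under 0.05 in liver and muscle. At that level stood 19.6% of all genes tested in liver and 4.26% in muscle. The 2 in liver were Tfam and Polrmt, and the 1 in muscle was Esrra. The mitochondrial transcription factor Tfam read 271, 394 and 375 in control livers and 575, 520 and 469 in mutant livers, without overlap (0.58, SE 0.17, adjusted p = 0.0975). Polrmt was lower in mutant liver (-0.44, SE 0.18, adjusted p = 0.210). Esrra was lower in mutant muscle (-0.34, SE 0.13, adjusted p = 0.994) and differed by 0.43 in liver (SE 0.22, adjusted p = 0.333). Nrf1 and Gabpa, whose strings were searched in the promoters, differed by 0.08 (SE 0.24) and -0.14 (SE 0.16) in liver.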

How the data were processed

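Intensities of 45101 probe sets on 12 arrays were used as deposited by the authors; the sources used here do not state the summary algorithm or scaling, although the labels' design text names d-Chip for clustering. Removing 64 control probe sets left 45037, and probe sets with 1 gene symbol in the platform annotation (34945) gave 18193 genes. Values were quantile-normalised within tissue, because array medians differed by 0.377 (log2) in liver against a bound of 0.2, and put as log2(value + 16). Each gene was represented by the probe set with the highest mean, and genes under the 40th percentile of all probe sets were left out. limma 3.58.1 (R 4.3.3) fitted lmFit and eBayes with a variance trend, with Benjamini-Hochberg adjustment over all genes. The liver and muscle fits had 4 residual degrees of freedom, the interaction 8. Code was tested on simulated data. Members and lists were chosen with earlier results of these data known. Genes named are those past the threshold in a tissue, the 6 with the smallest p and the 2 most negative per subunit and tissue, the extremes between tissues, and those whose probe sets disagree, as far as the text needs them; Mrpl38 and Mrpl40 beside Mrpl46 and Mrpl48 and the neighbour genes were picked after values were seen. A ranking by brightness was not made, since intensities do not compare between probe sets. Alternatives covered offset, filter, scaling, probe set choice, array weights, replicate block, RNA quality and single arrays left out.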

Additional observations from a re-analysis of the deposited data

Results flagged for a closer look

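For 9 genes the mutant difference in liver exceeded that in muscle by a tested interaction term (limma, adjusted p under the threshold). The terms, on the log2 scale, were 1.464 for Mrps36, 1.112 for Mrpl41, 1.081 for Mrpl46, 0.9769 for Mrpl13, 0.8862 for Mrpl54, 0.8666 for Mrpl14, 0.862 for Mrpl15, 0.8074 for Mrps33 and 0.6988 for Mrpl27. Mrpl15 lay closest to the threshold (adjusted p = 0.0497). Mrpl15 also had probe sets of both signs in each tissue, Mrpl54 had them in liver (-0.01 and 0.53) and Mrpl27 in muscle. With liver mutants 1 and 3 left out, 67 of the 76 terms stayed positive, with a median of 0.37.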

How the results depend on the processing

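In liver, muscle and the interaction, no called gene changed sign under any alternative run, and up to 12, 8 and 9 of the 76 genes, none of them called, did. Between control tissues 10 of the 44 called genes changed sign with values as deposited, and 0 did under the other alternatives. Muscle gave 0 calls, and liver 0 lower calls, throughout. The 15 higher calls in liver became 8 with no filter, 6 with values as deposited and 4 with the mean of a gene's probe sets. With every probe set fitted singly, 12 of the 156 were called higher, 7 of them probe sets that stand for a gene. The higher calls numbered 31 with 1 fit of all 12 arrays and 25 at an adjusted threshold of 0.1. They became 0 without the variance trend and with the RNA quality ratio as covariate. Leaving out 1 array gave 0 to 22. Calls over all genes, in either direction, changed as well, from 310 higher and 137 lower in the main fit. They numbered 222 with no filter, 297 as deposited, 171 with the mean and 997 with 1 fit. Fitted singly, 555 of 27022 probe sets were called. Without the trend all genes gave 0 calls, with the covariate 2, and with 1 array left out 0 to 738. The 9 interaction calls became 2 with no filter or median centring, 1 as deposited and 21 at a threshold of 0.1. They became 0 without the trend or with the covariate, and 0 to 18 with 1 array left out. Over all genes the interaction gave 137 calls in that direction and 31 in the other. These became 58 with no filter or median centring, 57 as deposited, 0 without the trend and 3 with the covariate. The causes were not tested.

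The liver medians of large and small subunit genes were 0.2143 and 0.2212 with the covariate and 0.2449 and 0.2335 without liver mutants 1 and 3. Their gap in liver was -0.00185 as deposited, -0.00185 with median centring, 0.0114 without liver mutants 1 and 3, and -0.09647 to 0.00616 with 1 array left out. In muscle median centring gave -0.08136 and -0.02915. With 1 array left out, the small subunit median in muscle was -0.1174 to -0.04681 and the gap -0.06767 to -0.000623. Between control tissues the 9 higher and 35 lower calls became 33 and 7 as deposited, 19 and 25 with median centring, and 5 to 11 higher with 1 array left out.

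Deviations of same-numbered samples correlated at r = -0.01, -0.11 and -0.03 in liver and 0.03, 0.09 and 0.20 in muscle. Pairs of unlike number lay between -0.08 and 0.11 in liver and between -0.16 and 0.09 in muscle. With 3 arrays a group these values cannot decide whether the numbers pair the samples. With a replicate block the liver calls numbered 0, the interaction calls 2, the muscle calls 0 and the calls between tissues 10 higher and 33 lower. Over all genes the liver, interaction and muscle calls then numbered 11, 26 and 2. Signal over background limits the dimmer probe sets, of which 16 in liver and 20 in muscle were not tested.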
